A study of Mus musculus with 18 samples.

Results

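The enzymes that turn oxidosqualene into lanosterol and lanosterol into cholesterol are encoded by 9 genes, taken here in pathway order: *Lss*, *Cyp51*, *Tm7sf2*, *Msmo1*, *Nsdhl*, *Hsd17b7*, *Ebp*, *Sc5d* and *Dhcr7*. They were chosen by name for their place in the pathway, and all 9 were found among the 22524 genes of the count lists and among the 13353 genes with enough counts to be tested. Liver RNA came from 10 female *Rps2*-A226Y mice and 8 female wild-type (WT) mice that carried CMV-Cre, with 1 library per mouse and every animal 15 months old. The A226Y mice were heterozygous for a knock-in allele of *Rps2*, a protein of the small ribosomal subunit, in which the changed residue makes decoding error-prone. In that allele a floxed STOP cassette blocks transcription until Cre, driven from the CMV promoter in all tissues, removes it. Excision was partial, so each mutant liver was a mosaic of cells with the mutant allele and cells in which the allele remained silent, and a level in these livers averages over both. The *Rps2* line was made in 129/Sv stem cells, backcrossed to C57BL/6 and mated with CMV-Cre mice, and the labels give C57BL/6 as the strain of both genotypes. The comparison of the genotypes asks how a liver with error-prone translation differs from one that carries only the Cre transgene. Cells with the silent allele are haploinsufficient for *Rps2*, so its lower dose and error-prone translation cannot be told apart in these mice. The paper compared separate mice that carry the silent allele with their own controls, and reported far fewer changed genes there.

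Cholesterol is made in the endoplasmic reticulum. Acetyl-CoA is built up through mevalonate to squalene, the squalene is oxidised and folded into lanosterol, and lanosterol is then trimmed of its extra methyl groups while its double bonds are moved and reduced. When sterols run low in the membrane, SCAP escorts the transcription factor SREBP-2 out of the endoplasmic reticulum, it is cut free, and it activates the genes of the pathway. Liver makes cholesterol for bile acids and lipoproteins, and its synthesis follows meals and the time of day.

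In the A226Y livers, transcripts of 6 of the 9 enzymes were lower than in WT and none was higher. *Cyp51*, *Msmo1* and *Nsdhl*, which carry out the demethylations of lanosterol, stood at 43.3%, 39.2% and 41.7% of the WT level, and *Dhcr7*, the reductase that finishes the molecule, at 49.95%. *Sc5d* fell to 63.1% and *Tm7sf2* to 70.5%. *Hsd17b7* and *Ebp* did not pass the test, and *Lss*, at 70.4%, missed it narrowly. A gene was called when its adjusted p was under 0.05 in edgeR's quasi-likelihood test, which compares the counts of the genotypes against the spread between mice and adjusts over all 13353 genes with the Benjamini-Hochberg method. Of all genes tested, 7.03% were called lower and 7.27% higher. At an unadjusted p under 0.05, 8 members were lower and 0 higher, where 14.7% of all genes were lower and 14.9% higher. DESeq2 called 7 members lower and 0 higher, against 8.77% and 9.34% of all genes, and limma-voom 4 lower and 0 higher, against 6.87% and 7.14%. The median log2 fold change was −0.66 over the 9 members and −0.004 over all genes tested. In bulk liver, fewer cells that express these genes and less RNA per cell cannot be told apart.

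The calls for the members depended on how differences between mice of one genotype were treated. When 4 surrogate variables, patterns of spread between mice estimated from all genes with sva, were added to the fit, 1.02% of all genes were called lower and *Tm7sf2* was the one member among them, with an adjusted p of 0.0300 in edgeR's test. The members' log2 fold changes in that fit ran from −0.98 for *Cyp51* to −0.03 for *Hsd17b7*. For *Dhcr7* the fold change went from −1.0 to −0.48 and for *Sc5d* from −0.66 to −0.38, whereas *Tm7sf2* went from −0.51 to −0.49.

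**Figure D1:**
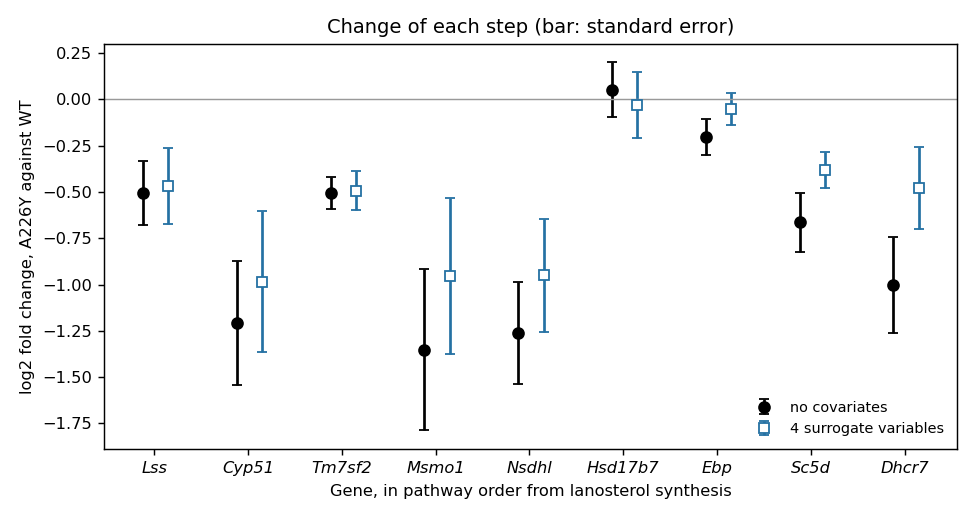
Log2 fold change of A226Y against WT for each gene, in pathway order on the horizontal axis, without covariates (filled circles) and with 4 surrogate variables (open squares), where bars are standard errors. Without covariates *Cyp51*, *Msmo1*, *Nsdhl* and *Dhcr7* lie between −1.35 and −1.0, *Hsd17b7* at 0.05, and *Tm7sf2*, at −0.51 and −0.49, changes least between the fits.

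Depth was ample for every member. Total counts per mouse ranged from 23850565 to 62126131 in A226Y and from 25869192 to 34918732 in WT, and the smallest count of any member in any mouse was 220, for *Nsdhl*. For *Rps2* itself, the highest A226Y mouse lay below the lowest WT mouse, at 83.0 against 104 CPM (log2 fold change −0.73, adjusted p = 0.000772, edgeR). The hepatocyte genes *Alb* and *Apoa1* were abundant in every library, as the label liver requires. Levels are given as CPM, the count of a gene relative to the library's total after TMM scaling, and SE stands for the standard error on the log2 scale. With scaling by library size alone, 67.9% of all called genes were higher in A226Y against 50.8% with TMM, but no call of a member changed.

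The first enzyme, *Lss*, is lanosterol synthase, which folds oxidosqualene into the sterol ring system. Its gene (ENSMUSG00000033105) lies on chromosome 10 of GRCm38, 76531588 to 76557138, plus strand. The lowest, median and highest levels were 18.96, 25.01 and 33.99 CPM in A226Y and 22.5, 31.8 and 57.5 CPM in WT. WT mice 6, 14 and 33 lay above every A226Y mouse and the other 5 fell within the A226Y range, so the groups overlapped. Its log2 fold change of −0.51 (SE 0.17) had an adjusted p of 0.0534 in edgeR's test, and the two-sided exact permutation test over the 43758 divisions of the mice into 10 and 8 gave p = 0.0342. The test across genes called *Lss* lower when WT 4, WT 21, WT 28 or A226Y 23 was left out, with adjusted p-values of 0.0263, 0.0404, 0.0340 and 0.0426. An antisense gene, *4930483K19Rik*, covers 11268 bases of the locus, and since counting by strand is not stated, its reads cannot be told apart from those of *Lss*.

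*Cyp51* encodes the cytochrome P450 that performs the first demethylation of lanosterol, the step that azole drugs block in fungi. The gene (ENSMUSG00000001467) is on chromosome 5, 4081145 to 4104746, minus strand. A226Y mice ranged from 25.1 CPM through a median of 42.7 to 92.0 CPM, and WT mice from 37.0 through 91.6 to 231 CPM. WT 6, 14 and 33, at 164, 231 and 158 CPM, were far above all mutant mice, and WT 13 was just above them at 92.7, whereas WT 4, 21 and 28 lay between 37.0 and 48.8 CPM, among the mutants. *Cyp51* changed by −1.21 on the log2 scale (SE 0.34), with an adjusted p of 0.0222 (edgeR) and an exact permutation p of 0.0160. Without WT 14 the adjusted p was 0.0648 and the fold change −0.95. Its last 166 bases overlap *Akap9* on the other strand, which was higher in A226Y (log2 fold change 0.27, SE 0.07, adjusted p = 0.0183 by edgeR).

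*Tm7sf2* encodes a reductase of the endoplasmic reticulum membrane that removes the double bond left by *Cyp51*, a reaction the nuclear envelope protein LBR can also perform. The gene (ENSMUSG00000024799) is on chromosome 19, 6062821 to 6068373, minus strand. Levels in A226Y were 77.8, 92.9 and 124 CPM (lowest, median, highest) and in WT 120, 134 and 159 CPM. All A226Y mice except number 15, at 124 CPM, were below the lowest WT mouse, number 21 at 120 CPM. At least 9 A226Y mice lay below every WT mouse for 1.14% of all genes tested, and among the 9 members for *Tm7sf2* alone. Its log2 fold change of −0.51 had the smallest SE of the 9 members, 0.09, with an adjusted p of 0.00185 (edgeR) and an exact permutation p of 9.14e-05. Leaving out any 1 mouse gave fold changes between −0.55 and −0.47 and adjusted p-values of at most 0.00481. The start of the gene overlaps 532 bases of *Vps51* on the same strand, whose log2 fold change was −0.14 (adjusted p = 0.131, edgeR).

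The 2 enzymes that begin the removal of the paired methyl groups had the largest estimated changes. *Msmo1* encodes the oxygenase that attacks them, and its gene (ENSMUSG00000031604) lies on chromosome 8, 64718139 to 64733792, minus strand. It ranged from 15.8 CPM through 46.3 to 145 CPM in A226Y and from 42.7 through 126 to 367 CPM in WT. WT 14, at 367 CPM, and WT 33, at 230 CPM, were highest, and WT 4, 21 and 28 stood together at 43.7, 43.4 and 42.7 CPM, below the mutant median. Among mutants, number 23 reached 145 CPM and number 29 only 15.8 CPM. The log2 fold change of −1.35 had the largest SE of the 9, 0.44, with an adjusted p of 0.0433 (edgeR) and an exact permutation p of 0.0293. The call was lost when any one of 13 mice was left out (A226Y 3, 5, 7, 11, 15, 18, 22 and 32 and WT 6, 13, 14, 24 and 33), with adjusted p-values from 0.0509 to 0.129 and fold changes from −1.40 to −0.99.

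*Nsdhl* encodes the dehydrogenase that follows, which strips the oxidised carbon as carbon dioxide. The gene (ENSMUSG00000031349) is on the X chromosome, 72918557 to 72958514, plus strand. Mutant mice ranged from 7.73 CPM through 11.8 to 17.5 CPM and WT mice from 11.2 through 27.9 to 52.5 CPM. WT 6, 13, 14, 24 and 33, from 27.2 to 52.5 CPM, were above all mutants, and WT 4, 21 and 28, from 11.2 to 14.1 CPM, were within their range. *Nsdhl* changed by −1.26 on the log2 scale (SE 0.28), with an adjusted p of 0.00611 (edgeR) and an exact permutation p of 0.00340. Its adjusted p was at most 0.0168 whichever single mouse was left out.

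*Hsd17b7* encodes the ketone reductase that completes each round of this demethylation. It works on the product of *Nsdhl*, but its transcript was not called. The gene (ENSMUSG00000026675) is on chromosome 1, 169949535 to 169969241, minus strand. A226Y mice lay between 75.8 and 110 CPM with a median of 92.7 CPM, and WT mice between 51.7 and 137 CPM with a median of 83.7 CPM. WT 6 and WT 14, at 134 and 137 CPM, were above the mutants, WT 21 and WT 28, at 51.7 and 64.5 CPM, were below them, and the others fell inside. Its log2 fold change of 0.05 (SE 0.15) had a 95% interval from −0.26 to 0.36, an adjusted p of 0.850 (edgeR) and an exact permutation p of 0.494. The sign turned, to −0.030, with surrogate variables, to −0.034 without WT 21 and to −0.006 without WT 28.

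The CPM per kilobase of principal transcript of *Nsdhl*, divided by that of *Hsd17b7* in the same mouse, sets neighbouring steps side by side. All ratios here are scaled by length in this way. The ratio ran from 0.178 through 0.286 to 0.358 in A226Y and from 0.310 through 0.629 to 1.19 in WT. In 7 of 10 mutants it was below every WT mouse, and in 7 of 8 WT mice it was above every mutant. Taken as *Msmo1* over *Hsd17b7*, it ran from 0.432 to 3.24 in A226Y and from 1.29 to 6.02 in WT, with 6 mutants below every WT mouse and 3 WT mice above every mutant. *Dhcr7* over *Sc5d*, the last steps, had medians of 0.212 in A226Y and 0.213 in WT, with 1 mutant below every WT mouse and 0 WT mice above every mutant. *Dhcr7* over *Tm7sf2* had medians of 0.124 and 0.121, with 0 mutants below every WT mouse and 3 WT mice above every mutant. *Cyp51* over *Tm7sf2* had medians of 0.148 and 0.233, with counts of 2 and 3. These pairs were picked after their values had been seen, so the ratios are given without a test.

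*Ebp* encodes the isomerase that shifts the ring double bond, and its gene (ENSMUSG00000031168) lies on the X chromosome, 8185329 to 8193512, minus strand. Levels were 139, 155 and 221 CPM in A226Y and 148, 179 and 247 CPM in WT (lowest, median, highest). All mutants but number 23, at 221 CPM, lay at or below 174 CPM, and WT 14 alone exceeded number 23. *Ebp* changed by −0.20 on the log2 scale (SE 0.10), with a 95% interval from −0.41 to −0.003, an adjusted p of 0.162 (edgeR) and an exact permutation p of 0.0579. Without A226Y 23 it was −0.26 with an adjusted p of 0.0420.

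*Sc5d* encodes the desaturase that introduces the next double bond with electrons from cytochrome b5. The gene (ENSMUSG00000032018) is on chromosome 9, 42251595 to 42264256, minus strand. Levels were 85.5, 193 and 227 CPM in A226Y and 196, 293 and 401 CPM in WT. WT 6, 13, 14, 21, 24 and 33 were above every mutant, and WT 28, at 196 CPM, and WT 4 fell within the mutant range. A226Y 29 was lowest at 85.5 CPM, with the next mutant, number 32, at 146 CPM. The change on the log2 scale, −0.66 (SE 0.16), had an adjusted p of 0.0107 (edgeR) and an exact permutation p of 0.000708.

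*Dhcr7* encodes the reductase that gives cholesterol from its immediate precursor, and loss of the human gene causes Smith-Lemli-Opitz syndrome. The gene (ENSMUSG00000058454) is on chromosome 7, 143823145 to 143848410, plus strand. Mutants lay in a narrow band from 18.2 through 22.1 to 27.2 CPM, and WT mice spread from 18.9 through 36.3 to 99.5 CPM. WT 6, 13, 14, 24 and 33 were above every mutant, and WT 4, 21 and 28 were inside the band. The change on the log2 scale, −1.0 (SE 0.26), had an adjusted p of 0.0149 (edgeR) and an exact permutation p of 0.00832.

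**Figure D2:**
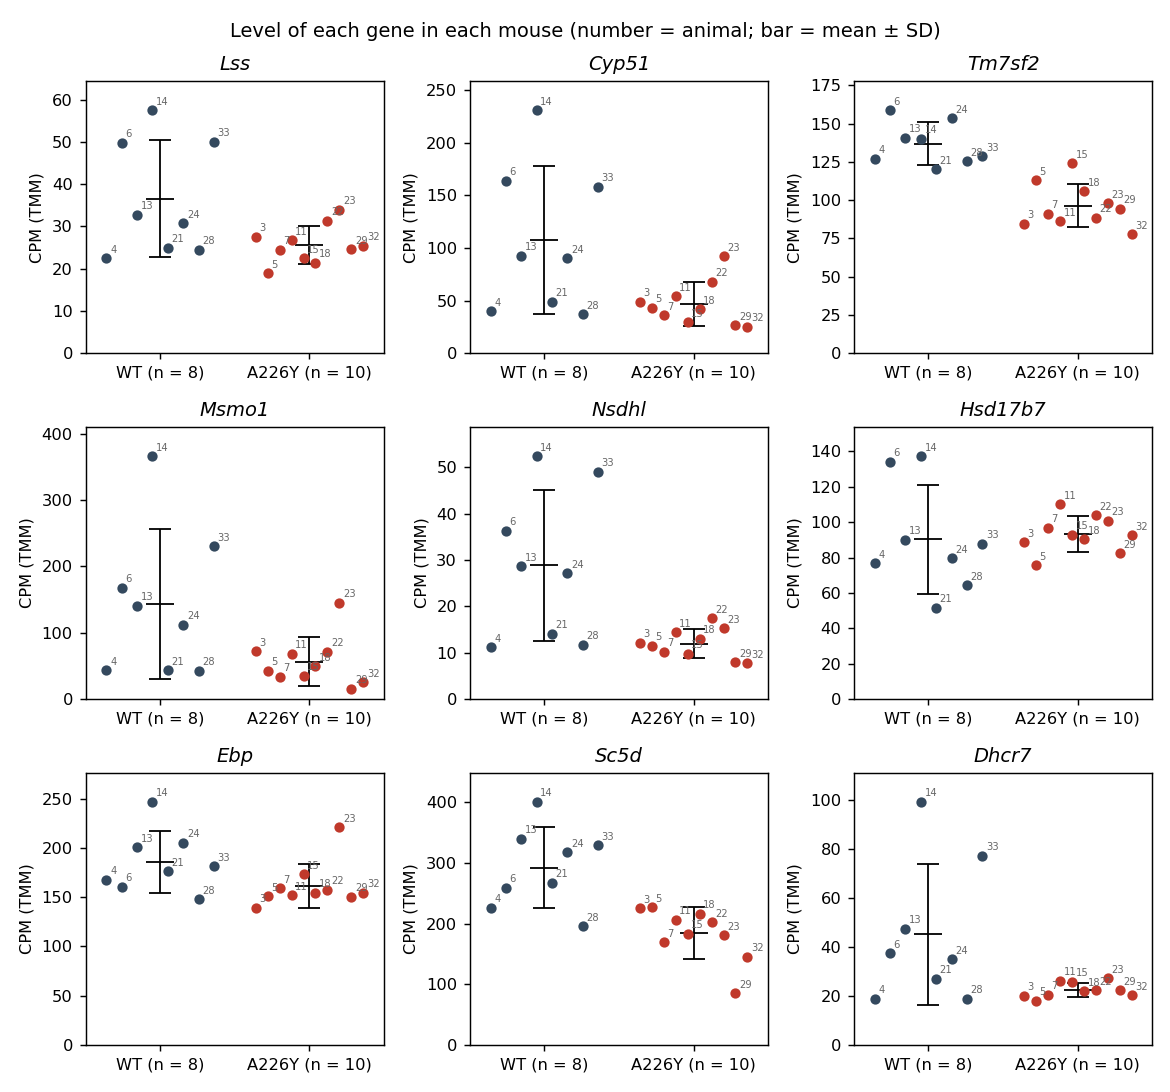
Level of each gene in each mouse, in CPM on a linear axis that starts at 0, for 8 WT and 10 A226Y mice, where points carry animal numbers and bars are mean ± SD. WT mice reach from 42.7 to 367 CPM for *Msmo1* and from 18.9 to 99.5 CPM for *Dhcr7*, whereas for *Tm7sf2* both groups are narrow and 9 of 10 mutants lie below every WT mouse.

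Much of the pattern lay in the spread between mice. The SD of log2 CPM in WT was 1.199 for *Msmo1*, 1.001 for *Cyp51*, 0.90 for *Nsdhl* and 0.88 for *Dhcr7*, larger than that of 99.3%, 98.9%, 98.6% and 98.5% of 11941 genes. For *Tm7sf2* it was 0.15, larger than that of 32.3% of genes. In A226Y the SD was 0.19 for *Dhcr7* and 0.16 for *Hsd17b7*, against 0.88 and 0.48 in WT, so for these genes the mutants were the more uniform group. *Sc5d* and *Tm7sf2* had the larger SD in A226Y, 0.42 against 0.34 and 0.21 against 0.15. No test of the difference in spread was made.

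The same WT mice were high or low across the pathway. WT 4 and WT 28 were among the 3 lowest WT mice for 9 of 9 genes and WT 21 for 7. WT 14 was above every mutant for 9 of 9 genes, WT 6 for 8, WT 33 for 7, WT 13 for 5 and WT 24 for 4. Among the mutants, number 23 was the highest for 5 genes, and the lowest value fell to number 5 or 32 for 3 genes each and to number 29 for 2. Mouse 23 was also the deepest library.

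**Figure D3:**
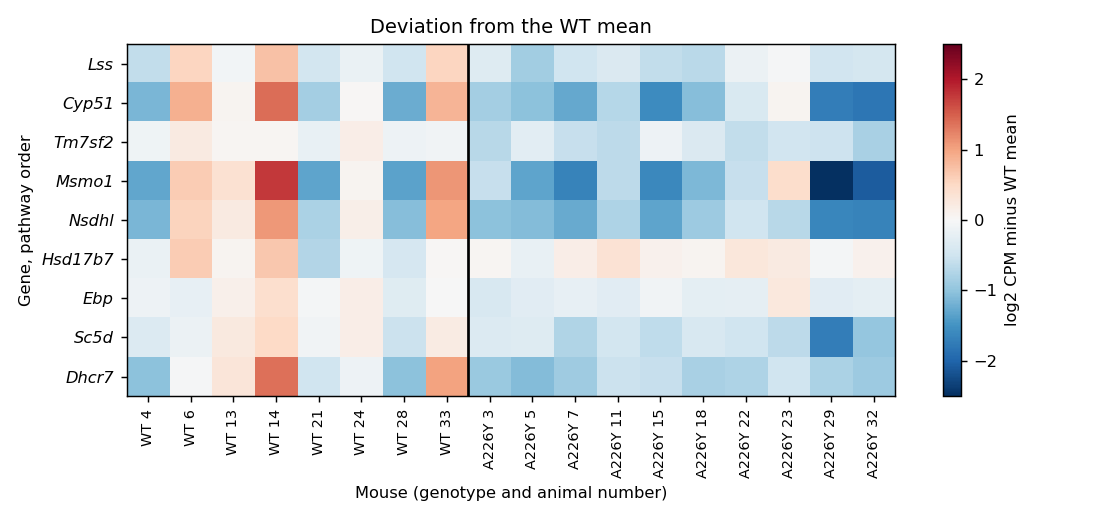
Log2 CPM of each gene (rows, in pathway order) in each mouse (columns, 8 WT left of the line and 10 A226Y right of it) minus the WT mean of that gene, with red above and blue below. WT 14 is above the WT mean and WT 4 and WT 28 below it along most of the column, and the *Tm7sf2* row is pale in WT and blue in A226Y.

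To describe how the genes moved together, each mouse's log2 CPM was taken as its deviation from the mean of its own genotype, and each member was compared with the mean of the other 8 over the 18 mice. Pearson's r was 0.96 for *Cyp51* and *Nsdhl*, 0.94 for *Msmo1*, 0.85 for *Lss*, 0.83 for *Dhcr7* and 0.75 for *Hsd17b7*. It was lower for *Sc5d*, 0.63, and *Ebp*, 0.60, and lowest for *Tm7sf2*, 0.24. Within the genotypes r was 0.54 in WT and −0.03 in A226Y for *Tm7sf2*, 0.93 and 0.45 for *Dhcr7* and 0.95 and 0.52 for *Lss*. For *Cyp51*, *Msmo1* and *Nsdhl* it ran from 0.90 to 0.99. *Hsd17b7*, whose mean gave no call, had 0.80 in WT and 0.55 in A226Y. The points share their libraries and scaling, and the values are descriptive.

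Among the 10 genes whose deviations were most like the members' mean, of 11932 compared, were *Fdps*, *Idi1*, *Mvk*, *Sqle*, *Gm43738*, *Mvd*, *Mmab* and *Hmgcs1*, with r from 0.97 down to 0.90. Over all genes compared the median r was −0.01 and the 95th percentile 0.41. *Fdps*, *Idi1*, *Mvk*, *Sqle*, *Mvd* and *Hmgcs1* act earlier in cholesterol synthesis, and *Mmab* neighbours *Mvk*. *Gm43738* overlaps 7512 bases of *Fdps* on the same strand, so its count may hold reads of *Fdps* and the *Fdps* count may be affected too. *Gm20388*, also in the count lists, overlaps 9822 bases of *Mvd* on the other strand. Since counting by strand is not stated, the *Mvd* count carries the same limit.

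Levels of different genes were compared only per length, as CPM per kilobase of the principal transcript. In WT livers the order was *Ebp* (107), *Tm7sf2* (93.0), *Msmo1* (70.1), *Sc5d* (61.0), *Cyp51* (27.4), *Hsd17b7* (19.6), *Dhcr7* (16.1), *Nsdhl* (13.3) and *Lss* (7.84). In A226Y livers *Ebp* (92.6) and *Tm7sf2* (65.6) again led, followed by *Sc5d* (38.5), *Msmo1* (27.4), *Hsd17b7* (20.3), *Cyp51* (11.8), *Dhcr7* (8.0), *Nsdhl* (5.53) and *Lss* (5.51). Mean ± SD ranges overlapped for many neighbours. Within WT, *Ebp* (SD 17.9) overlapped *Tm7sf2* (SD 9.49), and *Msmo1* (SD 55.2) overlapped both of these and *Sc5d*. *Cyp51* (SD 17.8), *Hsd17b7* (SD 6.66), *Dhcr7* (SD 10.3) and *Nsdhl* (SD 7.49) overlapped one another, and *Lss* (SD 2.95) overlapped *Nsdhl* and *Dhcr7*. These neighbours did not differ beyond their spread, so the WT order is one of means only. In A226Y, *Msmo1* (SD 18.1) overlapped *Sc5d* (SD 9.05), *Hsd17b7* (SD 2.19) and *Cyp51* (SD 5.28), and *Dhcr7* (SD 1.06), *Nsdhl* (SD 1.47) and *Lss* (SD 0.963) likewise lay within reach of a neighbour, so the A226Y order of these genes is one of means only.

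**Figure D4:**
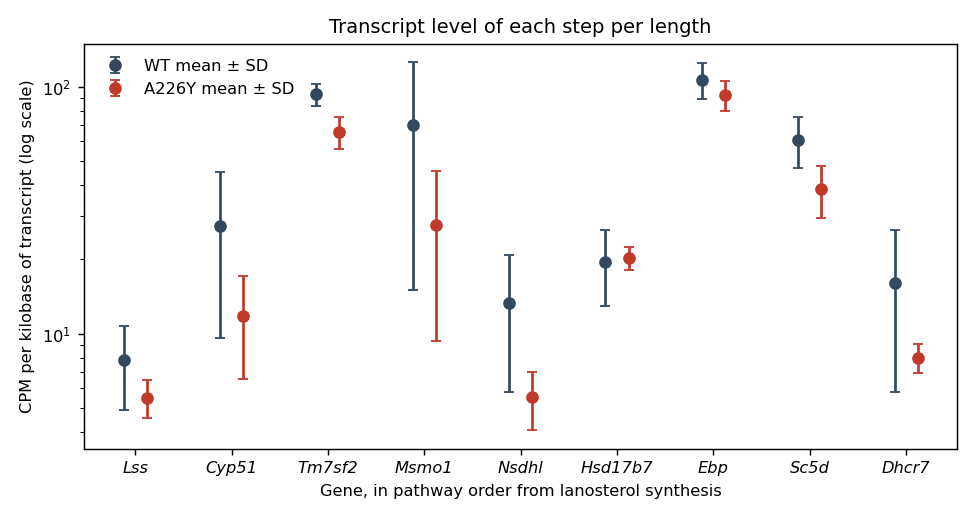
Level of each gene per length, as CPM per kilobase of the principal transcript on a log axis, with mean ± SD for WT (n = 8) and A226Y (n = 10) in pathway order. *Ebp* and *Tm7sf2* have the highest means in both genotypes, but in WT their bars and that of *Msmo1* overlap. In A226Y *Lss*, at 5.51, and *Nsdhl*, at 5.53, lie together at the bottom.

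Promoter sequences of *Cyp51*, *Hsd17b7*, *Tm7sf2* and *Msmo1* are printed because these genes differed most in behaviour: *Cyp51* and *Msmo1* fell and spread widely, *Hsd17b7* was not called, and *Tm7sf2* fell without the spread. SREBPs bind sterol regulatory elements and act with NF-Y, which binds CCAAT, and with Sp1, which binds GGGCGG. Windows run from 250 bases before to 50 bases after the RefSeq start, 5′ to 3′ on the gene's strand, on GRCm38.p6. Capitals mark TCACNNCA (a loose form of the sterol regulatory element, N being any base), CCAAT and GGGCGG on either strand.
Cyp51 (chr5:4104648-4104947, minus strand): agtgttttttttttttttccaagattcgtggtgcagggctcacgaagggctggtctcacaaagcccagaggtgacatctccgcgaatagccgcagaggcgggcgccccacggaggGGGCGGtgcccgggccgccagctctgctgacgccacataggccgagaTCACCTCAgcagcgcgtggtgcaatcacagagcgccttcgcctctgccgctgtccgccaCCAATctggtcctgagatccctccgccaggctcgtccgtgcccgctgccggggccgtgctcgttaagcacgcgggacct
Hsd17b7 (chr1:169969156-169969455, minus strand): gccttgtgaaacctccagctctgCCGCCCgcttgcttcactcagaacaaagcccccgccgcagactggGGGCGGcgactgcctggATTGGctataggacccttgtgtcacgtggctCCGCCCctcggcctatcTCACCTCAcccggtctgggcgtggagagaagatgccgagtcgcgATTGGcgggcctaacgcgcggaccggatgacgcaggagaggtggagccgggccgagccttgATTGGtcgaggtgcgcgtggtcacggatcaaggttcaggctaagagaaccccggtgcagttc
Tm7sf2 (chr19:6067801-6068100, minus strand): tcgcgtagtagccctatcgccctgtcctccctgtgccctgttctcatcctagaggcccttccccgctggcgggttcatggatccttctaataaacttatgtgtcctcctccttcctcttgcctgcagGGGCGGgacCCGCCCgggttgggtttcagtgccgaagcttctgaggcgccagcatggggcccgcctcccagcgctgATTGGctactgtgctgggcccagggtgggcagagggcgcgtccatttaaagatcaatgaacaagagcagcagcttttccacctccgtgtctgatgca
Msmo1 (chr8:64733529-64733828, minus strand): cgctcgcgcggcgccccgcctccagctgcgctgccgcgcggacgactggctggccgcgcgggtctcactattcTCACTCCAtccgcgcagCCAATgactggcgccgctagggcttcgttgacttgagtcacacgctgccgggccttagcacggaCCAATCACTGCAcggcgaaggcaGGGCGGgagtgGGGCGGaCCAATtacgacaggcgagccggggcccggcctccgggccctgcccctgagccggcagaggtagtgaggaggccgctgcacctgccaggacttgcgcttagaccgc

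All 9 members had a window, 11 in all, since *Dhcr7* has several starts. TCACNNCA on either strand was found for 6 members (*Cyp51*, *Msmo1*, *Nsdhl*, *Hsd17b7*, *Sc5d* and *Dhcr7*), against 15.7% of 27025 genes with a window and 13.6% of the tested genes among them. *Cyp51* and *Hsd17b7* hold the same 8 letters, TCACCTCA, starting 88 and 117 bases before the start, although *Cyp51* fell and *Hsd17b7* gave no call. *Msmo1* holds TCACTCCA, 177 bases before the start, and TCACTGCA, 92 bases before it, of which the second shares 1 base with a CCAAT. It alone matched the stricter TCACNCCA, found in 4.97% of genes. The printed *Tm7sf2* window holds no TCACNNCA. CCAAT and GGGCGG were found for 9 of 9 members each, against 41.1% and 38.2% of all genes and 42.6% and 66.4% of the tested genes. No member matched TCACNCCAC, CACCCCAC or TCANCCCA, which 1.44%, 3.30% and 5.69% of genes hold. A match is a description of letters and not of binding, and nothing is drawn from its absence.

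The pathway before lanosterol gave lower calls too. Of its 10 tested genes, 5 were called lower and 0 higher. All 10 changes were below 0, and their median was −0.88 on the log2 scale. The called genes were *Fdps* (−1.34), *Mvd* (−1.21), *Mvk* (−0.96), *Fdft1* (−0.67) and *Pmvk* (−0.63), which carry mevalonate to squalene. *Fdft1* lost its call when any one of 7 mice was left out (A226Y 7, 15 and 32 and WT 13, 14, 24 and 33), with adjusted p-values from 0.0514 to 0.0914. *Fdps*, farnesyl diphosphate synthase (SE 0.33, adjusted p = 0.0112, edgeR), ranged from 8.33 to 27.2 CPM in A226Y and from 10.99 to 79.9 CPM in WT. *Sqle* (−1.10), *Hmgcs1* (−0.80) and *Idi1* (−1.05) were not called, with adjusted p-values of 0.0786, 0.0709 and 0.0604 (edgeR). The count was 2 without WT 14, where *Mvk* and *Mvd* had adjusted p-values of 0.0531 and 0.0501, and 8 without WT 4 or without A226Y 23, and limma-voom called 3 and the fit with surrogate variables 0. At an unadjusted p under 0.05, 9 of the 10 were lower and 0 higher, and DESeq2 and limma-voom also called 0 higher.

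Enzymes and partners that work beside the 9 gave 5 lower calls among 7 tested genes and 0 higher, and limma-voom and DESeq2 gave the same counts. *Lbr*, the other reductase for the *Tm7sf2* step, was at 15.3 CPM in WT and 15.8 CPM in A226Y (log2 fold change 0.05, SE 0.10, adjusted p = 0.797, edgeR). *Tmem97* (−0.68), *Ebpl* (−0.62), *Erg28* (−0.59), which tethers the demethylation enzymes, and *Pgrmc1* (−0.40), a partner of P450 enzymes, fell. With surrogate variables *Pgrmc1* alone of these was called lower, with an adjusted p of 0.0313 in edgeR's test. *Faxdc2* was not analysed here.

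The oxygenases and the desaturase draw electrons from *Por* or from cytochrome b5 and its reductases. *Cyb5a* (log2 fold change −0.44, SE 0.09, adjusted p = 0.00569, edgeR) and *Cyb5r3* (−0.42, SE 0.07, adjusted p = 0.00213) fell, with 5 and 8 of 10 mutants below every WT mouse. *Por* gave 0.13, *Cyb5b* −0.21 and *Cyb5r1* 0.14, none of them called. With surrogate variables neither *Cyb5a* (adjusted p = 0.132) nor *Cyb5r3* (adjusted p = 0.0647) was called.

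Among 7 genes of sterol sensing, 3 fell and 2 rose. *Srebf2*, which encodes SREBP-2, fell from 77.7 ± 18.4 CPM (SD, n = 8) to 56.0 ± 8.51 CPM (SD, n = 10), a change of −0.47 on the log2 scale (SE 0.12, adjusted p = 0.0151, edgeR). Its deviations had an r of 0.89 with the members' mean over 18 mice. *Insig1*, which retains SCAP when sterols are plentiful and is itself an SREBP target, fell (−0.69, adjusted p = 0.0227), as did *Srebf1* (−1.22, adjusted p = 0.00551), which drives fatty acid synthesis. The *Insig1* call was lost without WT 14 (adjusted p = 0.0605) or WT 24 (adjusted p = 0.0511). *Insig2*, the retention protein that SREBP does not induce, rose from 111 ± 16.3 CPM to 244 ± 131 CPM (1.13, SE 0.23, adjusted p = 0.00423), and 9 of 10 mutants were above every WT mouse. A226Y 29, lowest for *Msmo1* and *Sc5d*, was highest for *Insig2* at 582 CPM. *Mbtps2*, one of the proteases that free SREBP, rose (0.38, adjusted p = 0.0107), and *Scap* (−0.19) and *Mbtps1* (−0.01) were not called. With surrogate variables *Insig2* was the one of the 7 still called, at an adjusted p of 0.000777.

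Targets of SREBP-2 outside synthesis gave 1 lower call of 3 tested genes. *Stard4*, a sterol carrier, gave −0.38 (adjusted p = 0.239, edgeR), and *Npc1l1* had too few counts to test. The count was 0 without WT 14 or WT 24 and 2 without A226Y 3 or A226Y 23. Of 7 LXR targets and efflux genes edgeR called 0, with 4 lower at an unadjusted p under 0.05, and DESeq2 called 3 lower and limma-voom 1. *Abcg1* (−0.43), *Abcg5* (−0.33), *Abcg8* (−0.30), *Nr1h3* (−0.12), *Nr1h2* (−0.03), *Abca1* (0.14) and *Mylip* (0.17) made up the list. Of 6 genes that esterify sterols or turn them into bile acids edgeR called 0, with 1 at an unadjusted p under 0.05 (*Soat1*, −0.42), and DESeq2 and limma-voom called 1 each. *Cyp7a1*, the rate-limiting enzyme of bile acid synthesis, gave −0.39 (SE 0.31), *Cyp8b1* −0.12, *Cyp7b1* −0.11, *Soat2* −0.05 and *Cyp27a1* 0.02, and *Ch25h* had too few counts to test.

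Genes that follow feeding also moved. Of 10 tested, 3 were lower in A226Y and 2 higher. *Acly* (−0.55) and *Fasn* (−0.68), which rise after a meal, were among the lower, and *Ppargc1a* (0.74) and *Igfbp1* (1.68), which rise in fasting, were the higher, with adjusted p-values from 0.00532 to 0.0283 in edgeR's test. With surrogate variables 0 of the 10 were called in either direction. *Igfbp1* fell out of the calls without WT 13, WT 14 or WT 24 (adjusted p from 0.0550 to 0.0598), and A226Y 29, at 685 CPM, carried much of its change: without it the fold was 2.08 against 3.20 (adjusted p = 0.0384). *Fasn* had an r of 0.28 with the members' mean in the 10 mutants and 0.74 in the 8 WT mice. Among 12 clock genes *Clock* rose (0.61, adjusted p = 0.000932) and none was called lower, with 2 lower at an unadjusted p under 0.05 and 1 each by DESeq2 and limma-voom. Feeding and time of day at sampling are not given in the sources used here, and their part in the lower enzyme transcripts was not tested.

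Markers of the other liver cells were checked beside the enzymes. Kupffer cell markers gave 1 lower call of 6, *Clec4f* (−0.65, adjusted p = 0.0261, edgeR), with all 6 values below 0 and a summed level of 246 to 877 CPM in A226Y and 375 to 812 CPM in WT. Without WT 14 edgeR called 0 of them, without WT 6 or WT 24 it called 2, without A226Y 5 it called 3 and without A226Y 29 it called 4. Stellate cell markers gave 1 lower call of 6, *Col1a1* (−0.77, adjusted p = 0.0162), with sums of 299 to 360 and 287 to 365 CPM. Hepatocyte markers gave 1 lower call, *Serpina1c* (−0.42), and 2 higher, *Apob* (0.29) and *Cps1* (0.55), of 9. *Serpina1c* is one of a family of near-identical genes whose reads the counting could split, so its value is uncertain, and *Apob* lost its call when any one of 8 mice was left out (adjusted p from 0.0514 to 0.0737). Endothelial, cholangiocyte, lymphocyte and red cell markers gave 0 calls by edgeR, DESeq2 and limma-voom, with 1 lower, 1 higher, 1 lower and 0 at an unadjusted p under 0.05. All 7 lymphocyte and all 4 red cell values were below 0 as well, with medians of −0.41 each, against −0.44 for the Kupffer cell markers. All 5 cholangiocyte values were above 0, and 2 of 5 endothelial values were below it. With surrogate variables the cholangiocyte marker *Spp1* was called higher (0.82, adjusted p = 0.0249, edgeR), against 0.21 and an adjusted p of 0.501 without them, and *Clec4f* was again called lower (−0.39, adjusted p = 0.0224). Summed lymphocyte markers ran from 48.9 to 190 CPM in A226Y and from 50.8 to 480 CPM in WT, and red cell markers from 151 to 389 and from 190 to 700 CPM. No marker of any list was at 0 in every mouse, and the part of these cells in the result was not tested.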

How the data were processed

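For each of the 18 mice the authors deposited 1 unnormalized read count for each of 22524 Ensembl genes. The accounts of how they were made differ: the methods name RSEM with an Ensembl annotation, and the submitters' processing notes name bcl2fastq, fastp, STAR, featureCounts, MultiQC and GRCm38. Whether counting used strand is not given in the sources used here. Symbols, coordinates and transcript lengths came from GENCODE M21 (GRCm38), which held 22291 of the 22524 identifiers, and promoter windows from RefSeq (GRCm38.p6).

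Genes reaching a count of 10 in 50% or more of either genotype's mice were tested, on the counts as deposited, with edgeR 4.0.16 (R 4.3.3; TMM, quasi-likelihood test, no covariates). Standard errors are the fold change divided by the root of the F statistic. Single members were also tested with an exact permutation test of log2 CPM (prior count 2), unadjusted. No 2 mice of a genotype agreed within sampling noise (chi-square per degree of freedom at least 20.1). By this measure, over all genes, A226Y 29 stood apart from every other mutant, at 215 to 474 against at most 94.4 for other mutant pairs. WT 33 stood apart from every other WT mouse, at 137 to 204 against at most 114. Without A226Y 29, 2560 genes were called, against 1910 with all mice. Each mouse is 1 replicate, and no technical batch is given in the labels.

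Alternatives were RLE, upper quartile and library size scaling, other count filters, DESeq2 1.42.0, limma-voom 3.58.1, 4 surrogate variables (sva 3.50.0), offsets for transcript length and GC content, and leaving out each mouse. The fits were tested on simulated counts. Genes named are all members, every gene of a list with up to 8 tested genes and otherwise the 2 lowest adjusted p-values per direction, *Srebf2*, *Lbr*, *Por*, *Rps2* and the 10 most alike genes. *Alb*, *Apoa1*, *Pmvk*, *Fdft1* and the overlapping genes *Akap9*, *Vps51*, *4930483K19Rik* and *Gm20388* were named outside that rule, after the results were seen. Results for a few genes that this rule covers are left out. The members and lists were chosen with earlier results of these data known.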

Additional observations from a re-analysis of the deposited data

Results flagged for a closer look

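Of 18 groups of mice examined, a genotype for each of the 9 members, 2 held a mouse far from the rest of its genotype by Dixon's test on log2 CPM, and chance alone gives about 1 in 20. A226Y 23 was high for *Ebp*, at 221 CPM, and A226Y 29 was low for *Sc5d*, at 85.5 CPM. Mouse 23 had the highest total count and was also highest among the mutants for *Cyp51*, *Msmo1*, *Lss* and *Dhcr7*.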

How the results depend on the processing

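The 6 members called lower were also 6 with RLE, upper quartile and library size scaling, with 10 counts required in every mouse and with the length and GC offsets, 5 without a filter, 7 with DESeq2 and 4 with limma-voom. With 4 surrogate variables 1 was called, and leaving out 1 mouse gave 4 (without WT 14) to 8 (without A226Y 23). Leaving out A226Y 23 and 29 together, chosen after seeing the data, gave 8. With surrogate variables lower calls became 0 of the upstream enzymes, 1 of the parallel enzymes and partners, 0 of the electron donors, 0 for sterol sensing (1 higher) and 0 of the SREBP-2 targets and feeding genes. Limma-voom called 3 upstream enzymes, 0 SREBP-2 targets, 1 LXR gene and 1 sterol use gene lower, and DESeq2 called 2 SREBP-2 targets, 3 LXR genes and 1 sterol use gene. The length offset gave 1 LXR gene and 1 sterol use gene, and omitting mice 23 and 29 gave 2 SREBP-2 targets, 1 LXR gene and 1 sterol use gene. Leaving out 1 mouse gave 2 to 8 upstream enzymes, 0 to 2 SREBP-2 targets, 0 to 3 lower and 0 to 1 higher LXR genes (3 without WT 6, 1 lower without A226Y 5, WT 14 or A226Y 29, 1 higher without WT 33) and 0 to 1 sterol use genes (1 without A226Y 5, WT 6 or A226Y 29). Exact permutation p-values over single mice left out ran from 0.0114 to 0.0773 for *Lss*, 0.0119 to 0.0664 for *Msmo1* and 0.00457 to 0.135 for *Ebp*, and the *Ebp* value was 0.0101 without mice 23 and 29. The *Hsd17b7* fold change was −0.030 with surrogate variables and ran from −0.034 to 0.164 over single mice left out. The calls of *Lss* were gained with DESeq2, the length offset and without mice 23 and 29, and *Msmo1* was lost without a filter, with limma-voom and with the length offset. *Dhcr7* was lost with limma-voom (adjusted p = 0.0521). *Sc5d*, *Nsdhl*, *Cyp51*, *Msmo1* and *Dhcr7* were lost with surrogate variables, with adjusted p-values of 0.0519, 0.108, 0.175, 0.240 and 0.266. Clock gave 1 lower gene without A226Y 3, A226Y 11, A226Y 29 or WT 21, and hepatocyte markers 1 higher without any of 8 mice. Causes were not tested. The labels give no litter or other pairing of the mice, so no paired analysis was made. Of the 10 most alike genes, 8 were shared with Spearman's correlation and 10 with library size scaling. With at least 220 counts per member and mouse, the spread between mice and not depth set the precision.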
